A study of Mus musculus with 9 samples.

Results

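DNA repair and telomere genes were compared between kidneys of 14 week old and 96 week old mice. The list held 42 genes, chosen by name for break repair, base and nucleotide excision, mismatch repair, the Fanconi and RecQ families, telomeres and the p53 response. Of these, 41 had a probe set that carried no other gene symbol, and Tdg was not analysed here. They were 41 of 19938 genes measured in this way. Whole kidney RNA came from wild type females of mixed FVB/C57BL6 strain background, 4 at 14 weeks and 5 at 96 weeks, with 1 Affymetrix Mouse Gene 1.0 ST array per mouse. No genotype or treatment separated the groups, and both ages were perfused before the kidneys were frozen. Values are the authors' log2 expression levels, and a log2 fold change is the 96 week mean minus the 14 week mean, given with its standard error (SE). Whole tissue averages many cell types, so a change in the number of cells of a type and a change of RNA per cell cannot be told apart.

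Cells repair DNA by pathways matched to the lesion. Base excision removes small oxidised, deaminated or alkylated bases, nucleotide excision removes bulky and helix-distorting lesions, and mismatch repair corrects replication errors. Breaks are sensed by the MRN complex and the kinases Atm and Atr, then joined end to end by the Ku pathway or repaired from the sister copy by homologous recombination. Telomeres are shielded by shelterin, which includes Terf1 and Terf2, and are extended by telomerase, whose catalytic subunit is Tert. Cells of the kidney tubule use much oxygen for transport and are exposed to oxidative DNA lesions.

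Repair gene transcripts changed little between the ages. Of the 41 genes, 1 (Ercc1) was higher at 96 weeks at an adjusted p under 0.05 from limma, which is 2.44%, and none was lower. The background over all 19938 genes was 4.31% higher and 2.4% lower. That background depended on scaling, as 64.2% of all calls were higher on the deposited values and 53% after a repeated quantile normalization. At an unadjusted p under 0.05, 7 members were higher (17.1%, background 13.3%), namely Atm, Xrcc6, Apex1, Polb, Ercc1, Ddb1 and Msh6. At the same threshold 5 members were lower (12.2%, background 15.3%), namely Xrcc5, Mutyh, Ung, Ercc4 and Xpa. The 2 groups of arrays did not overlap for 5 members (12.2%, background 13.3%), with Ercc1, Ddb1 and Msh6 higher and Xrcc5 and Ercc5 lower. These shares lay near the background.

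The bounds on the size of change were narrow. The 95% interval of every one of the 41 members lay within 1.5-fold in either direction, while this held for 92.1% of all genes. It lay within 1.25-fold for 30 members (73.2%, against 59.8% of all genes). Mean levels of 38 members were at or above the 30th percentile of all genes. Fancd2, Brca1 and Tert had the lowest levels and lay under it. The intervals bound only differences in array level, above all for these dim genes, as signal over background was not used for any member. The threshold of the study's methods, at least 1.5-fold with an unadjusted p under 0.05, was passed by 0 members. The background was 1.6% with limma and 1.29% by the methods' t-test. The largest difference was that of Apex1, at 1.23-fold. The members' median log2 fold change was 0.02, with 25 above 0 and 16 below, and the median over all genes was -0.03. The median size of the difference without its sign was 0.11 for the members and 0.11 for all genes.

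**Figure D1:**
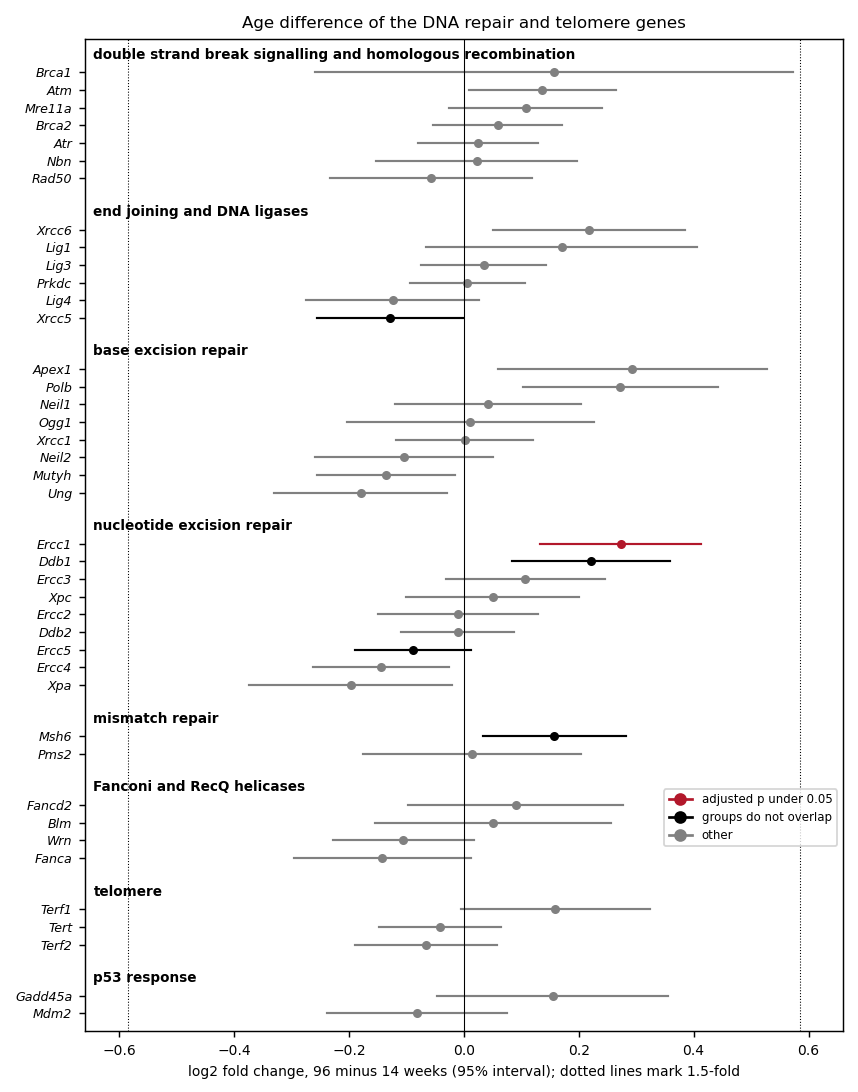
Log2 fold change of each of the 41 measured genes, 96 minus 14 weeks, as points with 95% intervals from limma, grouped by repair pathway. Ercc1 (0.27, red) passed an adjusted p under 0.05, black genes had groups of arrays that did not overlap, and every interval lies inside the dotted lines at 1.5-fold.

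Nucleotide excision repair held the only member that passed. Of its 9 genes, 4 were above 0 and 5 below, from -0.20 for Xpa to 0.27 for Ercc1, with a median of -0.01. Ercc1, the partner of the Ercc4 nuclease in the cut on the 5' side of the lesion, had levels of 7.05, 7.04, 7.08 and 6.83 at 14 weeks and 7.20, 7.35, 7.21, 7.32 and 7.28 at 96 weeks. All 5 old kidneys lay above all 4 young kidneys, and replicate 4 at 14 weeks lay below the other young kidneys. Ercc1 rose by 0.27 in log2 terms (SE 0.063, 95% interval 0.13 to 0.41, limma adjusted p = 0.0336), which is 1.21-fold. The adjusted p was over 0.05 when any 1 of 7 arrays was left out. These were each of the 14 week old arrays (0.0605, 0.0602, 0.0522 and 0.0701 without replicates 1 to 4) and replicates 2, 4 and 5 at 96 weeks (0.0674, 0.0592 and 0.0633). Without replicate 4 at 14 weeks the log2 fold change was 0.22, and without both replicates 3 and 4 at 96 weeks, in which macrophage and cycling markers were highest, it was 0.28 (limma adjusted p = 0.0702).

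The gene table places Ercc1 beside other genes that share its neighbourhood on the chromosome. Cd3eap, a subunit of RNA polymerase I, overlaps Ercc1 in that table and had a log2 fold change of -0.02 (limma adjusted p = 0.862). Ercc2, the XPD helicase, and Ppp1r13l, an inhibitor of p53, lie within 30000 bases and had log2 fold changes of -0.01 and -0.09. Neither passed the test.

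Ddb1 and Ercc5 also had groups that did not overlap, in opposite directions. Ddb1, a subunit of the UV damage sensor and of the Cul4 ubiquitin ligase, had levels of 9.56, 9.56, 9.55 and 9.48 at 14 weeks and 9.70, 9.95, 9.71, 9.72 and 9.71 at 96 weeks. The second old kidney lay above the other old ones, which spanned only 9.705 to 9.722. Its log2 fold change was 0.22 (SE 0.062, limma adjusted p = 0.0584), which missed the threshold. Ercc5, the XPG nuclease that cuts on the 3' side, had levels of 8.22, 8.27, 8.28 and 8.29 at 14 weeks and 8.21, 8.21, 8.11, 8.14 and 8.21 at 96 weeks. The gap between its groups was small, with 8.218 as the lowest young value and 8.212 as the highest old value. Its log2 fold change was -0.09 (SE 0.045, limma adjusted p = 0.219). It was -0.16 after a repeated quantile normalization (limma adjusted p = 0.066) and -0.055 without replicates 3 and 4 at 96 weeks (0.48). Of the other members of this pathway, Ercc4 (-0.14) and Xpa (-0.20), which verifies the lesion, were on the lower side, and the damage sensor Xpc (0.05) and the helicase Ercc3 (0.11) on the higher side. Ercc2 and Ddb2 were both at -0.01.

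Promoter sequences are shown for Ercc1, the member that passed, for Ddb1 and Msh6, which were the other members with all old kidneys above all young ones, and for Xrcc5, whose groups were separated in the opposite direction. Each is the RefSeq window from 250 bases before to 50 bases after the gene's start in build GRCm38.p6, read 5' to 3' on the plus strand, on which all 4 genes lie. Ercc5, the remaining gene without overlap, had no window in the table. Capitals mark motif matches on either strand.
Ercc1 chr7:19344821-19345120: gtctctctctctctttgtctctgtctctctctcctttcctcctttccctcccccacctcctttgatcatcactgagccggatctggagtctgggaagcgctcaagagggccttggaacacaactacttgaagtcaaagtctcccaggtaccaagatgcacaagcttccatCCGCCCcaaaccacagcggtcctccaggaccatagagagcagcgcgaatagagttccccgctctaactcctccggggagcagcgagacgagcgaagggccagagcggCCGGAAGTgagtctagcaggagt
Ddb1 chr19:10605347-10605646: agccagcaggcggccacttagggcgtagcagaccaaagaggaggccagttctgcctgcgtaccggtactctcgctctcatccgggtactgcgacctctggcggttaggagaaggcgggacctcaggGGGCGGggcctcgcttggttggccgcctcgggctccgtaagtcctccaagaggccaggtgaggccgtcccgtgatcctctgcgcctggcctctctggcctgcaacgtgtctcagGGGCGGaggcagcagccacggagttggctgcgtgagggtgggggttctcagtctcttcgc
Msh6 chr17:87974800-87975099: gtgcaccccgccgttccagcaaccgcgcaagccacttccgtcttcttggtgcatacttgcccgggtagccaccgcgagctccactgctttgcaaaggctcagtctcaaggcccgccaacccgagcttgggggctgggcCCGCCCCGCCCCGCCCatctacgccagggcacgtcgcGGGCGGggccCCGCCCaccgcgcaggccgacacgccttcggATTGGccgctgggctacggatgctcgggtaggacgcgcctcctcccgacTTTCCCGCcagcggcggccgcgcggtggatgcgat
Xrcc5 chr1:72307171-72307470: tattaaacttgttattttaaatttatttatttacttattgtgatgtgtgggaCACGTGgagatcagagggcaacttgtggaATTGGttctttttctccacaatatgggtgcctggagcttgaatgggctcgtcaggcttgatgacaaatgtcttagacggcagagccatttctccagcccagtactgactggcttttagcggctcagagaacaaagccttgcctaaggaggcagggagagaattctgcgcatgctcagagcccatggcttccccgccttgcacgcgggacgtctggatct
The capitals in Ercc1 are 1 GC box, written as its reverse complement, and 1 ETS site past the start. Ddb1 held 2 GC boxes. Msh6 held 5 GC boxes, some of them side by side, 1 CCAAT box and 1 E2F site. Xrcc5 held 1 CCAAT box and 1 E-box and no GC box, and its GC content was 48%, against 57% for Ercc1, 66.7% for Ddb1 and 71.7% for Msh6.

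A promoter window was listed for 30 of the 41 members and for 27025 genes in all. The motifs searched, on both strands, were the GC box GGGCGG, the CCAAT box CCAAT, the E2F site as TTTGGCGC, TTTCCCGC or TTTCGCGC, the ETS site CCGGAAGT, the E-box CACGTG and the TATA box TATAAA. A gene was counted if any window listed for it held the motif. A GC box was found for 22 members (73.3%, against 38.2% of all genes with a window) and a CCAAT box for 20 (66.7%, against 41.1%). E2F sites were found for 4 members (13.3%, against 2.12%), namely Brca2, Lig1, Msh6 and Xrcc6. The members with an E2F site had a median log2 fold change of 0.16, against 0.03 for the GC box, 0.01 for the CCAAT box, 0.01 for the ETS site, 0.10 for the E-box and 0.06 for the TATA box, and none of these was tested. The ETS site occurred for 3 members (10%, against 4.31%), the E-box for 4 (13.3%, against 8.09%) and the TATA box for 3 (10%, against 15.7%). In the first listed window of each gene, the median number of CpG dinucleotides was 21.5 for members and 7 for all genes. The median GC content of these first windows was 58.5% for members and 52.67% for all genes, and the motif shares were not matched for it. A match is only a match of letters in the window.

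Base excision repair held 2 of the 3 largest differences among the members, those of Apex1 and Polb, and none of its 8 measured genes passed the test. Of these genes, 5 were above 0 and 3 below, with a median of 0.01. Polb, the polymerase that fills the gap left by a removed base, had levels of 8.49, 8.70, 8.55 and 8.46 at 14 weeks and 8.70, 8.94, 8.68, 8.88 and 8.92 at 96 weeks. The groups met at the second young kidney, whose level exceeded those of replicates 1 and 3 at 96 weeks. Its log2 fold change was 0.27 (SE 0.077, limma adjusted p = 0.0594). Apex1, the endonuclease that cuts at abasic sites, had a log2 fold change of 0.29 (SE 0.11, limma adjusted p = 0.111). It had the largest difference of all members, but the young values ran from 7.01 to 7.45 and the old from 7.40 to 7.84, so that the groups overlapped. The glycosylases, which remove the damaged base, were spread on both sides of 0. Ung, which removes uracil, was at -0.18 and Mutyh, which removes adenine mispaired with oxidised guanine, at -0.14. Neil2 was at -0.10, Ogg1, the main glycosylase for oxidised guanine, at 0.01 and Neil1 at 0.04. The scaffold Xrcc1 was at 0.00.

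The Ku subunits, which hold broken ends for joining, had opposite signs. Xrcc6, which encodes Ku70, had levels of 6.96, 6.80, 6.82 and 6.85 at 14 weeks and 7.26, 7.20, 7.01, 6.96 and 6.96 at 96 weeks. The groups met only at 1 shared value, 6.96, held by 1 young and 2 old kidneys. The log2 fold change was 0.22 (SE 0.075, limma adjusted p = 0.101). Xrcc5, which encodes Ku80, had levels of 9.93, 9.91, 9.90 and 10.05 at 14 weeks and 9.90, 9.88, 9.79, 9.70 and 9.83 at 96 weeks. Its groups were parted by the thinnest of margins, 9.896 as the lowest young value and 9.895 as the highest old value. Xrcc5 thus had a log2 fold change of -0.13 (SE 0.057, limma adjusted p = 0.171). It was -0.22 after a repeated quantile normalization (limma adjusted p = 0.0726) and -0.08 without replicates 3 and 4 at 96 weeks (0.393). The other genes of end joining and ligation were Prkdc, the kinase that Ku recruits (0.01), Lig4, the ligase of this pathway (-0.12), Lig3 (0.03) and Lig1, the ligase of replication (0.17), and none of them passed.

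**Figure D2:**
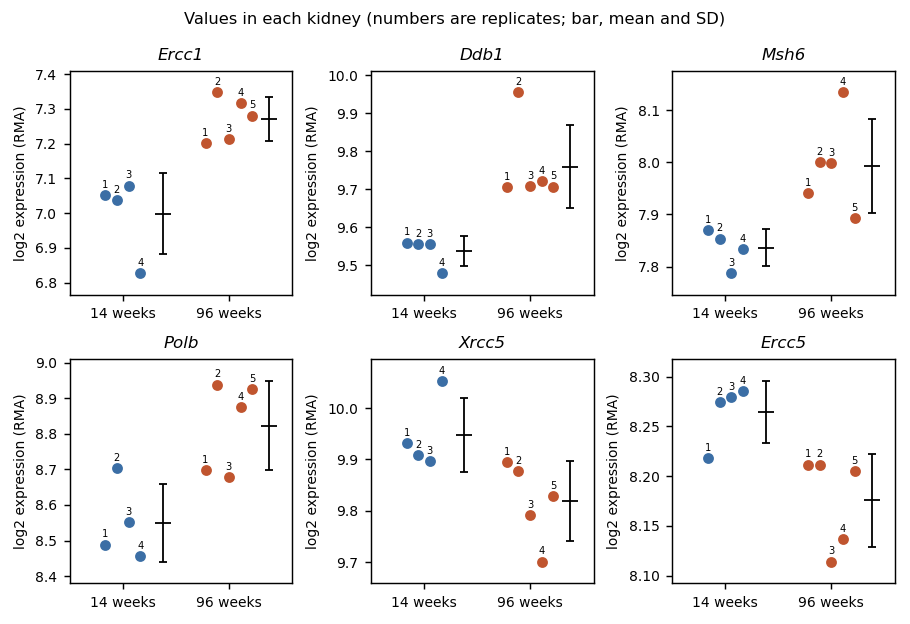
Log2 expression level of 6 members in each kidney at 14 weeks (4 mice) and 96 weeks (5 mice), where each numbered point is 1 array and the bars are the group mean with 1 SD. Ercc1, Ddb1 and Msh6 have all old kidneys above all young ones, Xrcc5 and Ercc5 have all of them below, and the groups of Polb overlap.

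Genes of the same complex were set against each other within each array, so that a shift shared by a whole array cancels. These differences compare arrays for a fixed pair of probe sets and have no meaning as a ratio of molecules, and no test was made, since the pairs were looked at with the members' values known. Xrcc6 minus Xrcc5, relative to the 14 week mean of that difference, was higher by 0.35 at 96 weeks on the log2 scale. It spanned -0.11 to 0.12 in the young kidneys and 0.22 to 0.45 in the old ones. Ercc1 minus Ercc4 was higher by 0.42, from -0.18 to 0.18 in the young and 0.30 to 0.51 in the old kidneys. Ddb1 minus Ddb2 was higher by 0.23, from -0.05 to 0.02 in the young and 0.10 to 0.45 in the old kidneys. The ages did not overlap in these 3 pairs, but in each of them 1 partner (Xrcc5, Ercc1 or Ddb1) had separated groups on its own, so the pairs add little to the single genes. No share of separated pairs over all genes was computed. The pairs of the MRN complex, Xrcc1 with Lig3, and the TFIIH helicases Ercc3 with Ercc2 differed by -0.03 to 0.17 between the ages, and their groups overlapped.

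**Figure D3:**
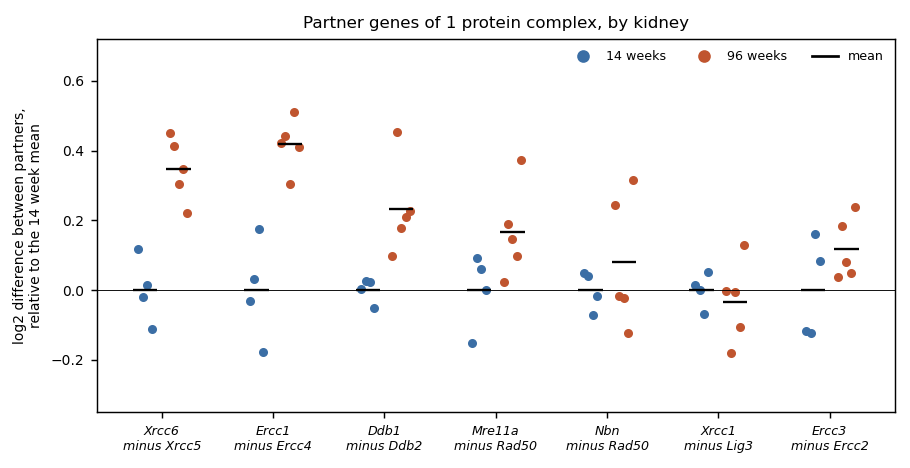
Difference in log2 level between partner subunits within each array, relative to its 14 week mean, for 7 pairs, with a point per kidney and bars for the group means. The pairs Xrcc6 and Xrcc5, Ercc1 and Ercc4, and Ddb1 and Ddb2 show no overlap between the ages, and the other 4 pairs do.

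Break signalling and homologous recombination held 7 members, of which 6 were above 0 and none passed. Atm, the kinase activated by breaks, had levels of 7.48, 7.43, 7.56 and 7.38 at 14 weeks and 7.61, 7.60, 7.56, 7.72 and 7.51 at 96 weeks. The groups overlapped, as replicate 3 at 14 weeks exceeded replicate 5 at 96 weeks. Atm had a log2 fold change of 0.14 (SE 0.058, limma adjusted p = 0.155). The MRN genes had log2 fold changes of 0.11 (Mre11a), 0.02 (Nbn) and -0.06 (Rad50). Atr, the kinase of stalled replication forks, was at 0.02, and Brca2, which acts in homologous recombination, at 0.06.

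Brca1, which acts with Brca2 in recombination, had the widest standard error of all members and is named, after its values were seen, because its value turned on 1 kidney. Its levels were 5.06, 5.09, 5.09 and 5.18 at 14 weeks and 5.09, 4.89, 5.24, 6.01 and 5.09 at 96 weeks. Replicate 4 at 96 weeks lay above all other arrays. The log2 fold change was 0.16 (SE 0.19, limma adjusted p = 0.59), and -0.03 without that kidney (SE 0.075, limma adjusted p = 0.816). Its level there was 0.93 above the mean of the other 4 old kidneys.

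The same kidney held the highest level of 11 members (26.8%, against 12.8% of all genes). Besides Brca1, 4 members were over 0.3 above the mean of the other old kidneys in it. They were Lig1 (0.39), the RecQ helicase Blm (0.39), Fancd2, the Fanconi protein that is ubiquitylated at stalled forks (0.36), and Apex1 (0.35). These 5 are 12.2% of members, while 6.21% of all genes and 15 of 18 measured markers of cycling cells (83.3%) were as far above. Mki67, the usual proliferation marker, had levels of 5.57, 5.88, 5.55 and 5.96 at 14 weeks and 6.49, 5.52, 6.98, 8.58 and 5.99 at 96 weeks. With this kidney left out, Lig1 was at 0.09, Blm at -0.03, Fancd2 at 0.02 and Apex1 at 0.22. The part of cycling cells in these values was not tested.

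Over all arrays the cycling marker list, centred per gene, had a mean of -0.30 to -0.17 at 14 weeks, and of 0.06, -0.32, 0.32, 1.06 and -0.13 in replicates 1 to 5 at 96 weeks. Of its 18 genes, 16 were above 0 and 1 (Mcm6, 0.71, limma adjusted p = 0.0412) passed. The B and plasma cell list shifted most with age, from -0.89 to -0.83 in the young kidneys to 1.07, -0.06, 0.60, 1.83 and 0.00 in replicates 1 to 5 at 96 weeks. All 7 of its measured genes were above 0, and 1 passed (Jchain, which rose by 5.02, limma adjusted p = 4.51e-05). Markers of T and NK cells were also highest in replicate 4, at a mean of 1.46 against -0.41 to -0.33 in the young kidneys. Their means in replicates 1, 2, 3 and 5 at 96 weeks were 0.65, -0.45, 0.11 and -0.32. Macrophage and dendritic cell markers ran from -0.45 to -0.40 in the young kidneys and from -0.13 to 0.88 in the old ones. Of these 14 genes, 13 were above 0 and 3 passed. The mean over the 41 repair members ran from -0.04 to 0.02 in the young kidneys and from -0.03 to 0.06 in the old. Opposite signs cancel in such a mean, so it does not bound single members, and no mean over all genes was set beside it. Of the kidney marker genes, Umod of the thick limb had levels of 12.78 to 12.92, Slc34a1 of the proximal tubule of 11.33 to 11.74 and Aqp2 of the collecting duct of 7.91 to 8.42. Not all such markers were steady with age. Of 6 loop of Henle and distal tubule markers 4 were below 0 and none passed, with no overlap between the ages for Calb1 (-0.47, limma adjusted p = 0.12) and Kcnj1 (-0.29, limma adjusted p = 0.0628). The mean of that list was 0.07 to 0.16 in the young kidneys, -0.58 in replicate 3 and -0.17 in replicate 4 at 96 weeks, and 0.08 to 0.15 in the other old kidneys. The podocyte marker Wt1 fell by 0.37 (limma adjusted p = 0.0242). The other podocyte markers measured, Nphs1 (0.06), Podxl (0.24) and Synpo (0.04), were above 0 and did not pass. The part of these marker differences in the repair gene values was not tested.

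**Figure D4:**
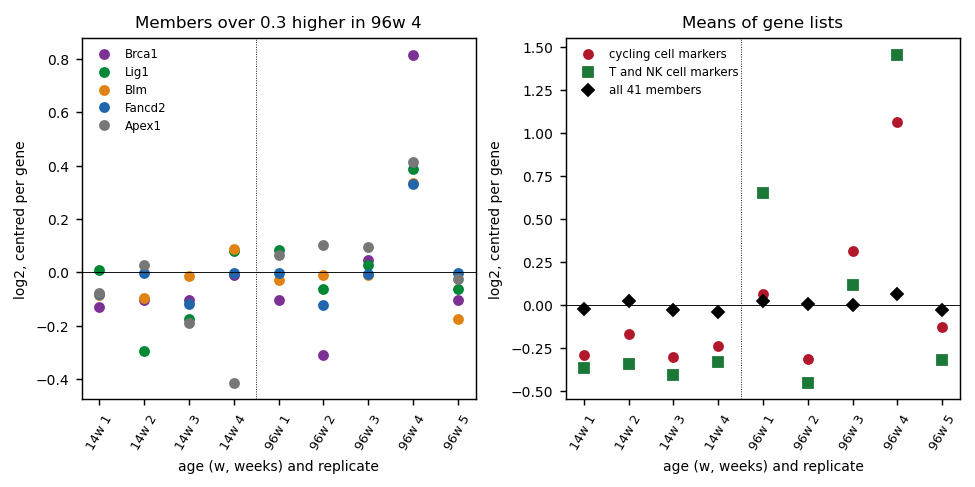
Log2 levels centred per gene in each of the 9 arrays: left, the 5 members over 0.3 higher in replicate 4 at 96 weeks than the mean of the other old kidneys; right, means over marker lists of cycling cells and of T and NK cells and over all 41 members. Replicate 4 at 96 weeks is highest in each, and the mean of all members stays within -0.04 to 0.06.

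Mismatch repair was measured through 2 members. Msh6, which recognises mispaired bases, had levels of 7.87, 7.85, 7.79 and 7.83 at 14 weeks and 7.94, 8.00, 8.00, 8.13 and 7.89 at 96 weeks. Every old kidney lay above every young one, by a small margin. The log2 fold change was 0.16 (SE 0.056, limma adjusted p = 0.109), and 0.10 after a repeated quantile normalization. Pms2, which acts after the mispair is recognised, was at 0.01. Its neighbour Aimp2, which starts within 1000 bases on the opposite strand, rose by 0.35 (SE 0.078, limma adjusted p = 0.0298). The other 10 members with such a divergent neighbour had neighbours between -0.12 (Zswim9 beside Lig1) and 0.19 (Abhd13 beside Lig4), and none passed.

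The Fanconi and RecQ genes, which act on crosslinks and stalled forks, lay on both sides of 0. Fanca, a part of the Fanconi core complex, had levels of 6.51, 6.78, 6.57 and 6.51 at 14 weeks and 6.51, 6.40, 6.35, 6.55 and 6.45 at 96 weeks. The second young kidney was the highest, and the groups overlapped. For Fanca the log2 fold change was -0.14 (SE 0.069, limma adjusted p = 0.203), and -0.08 without replicate 2 at 14 weeks. Fancd2 was at 0.09, Blm at 0.05 and Wrn, the helicase lost in Werner syndrome, at -0.11.

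Telomere genes did not pass either. Terf1, a shelterin protein that binds telomere repeats, had levels of 8.01, 8.10, 8.27 and 8.01 at 14 weeks and 8.17, 8.19, 8.32, 8.41 and 8.19 at 96 weeks. The groups overlapped through replicate 3 at 14 weeks. The log2 fold change was 0.16 (SE 0.074, limma adjusted p = 0.185), and 0.09 either after a repeated quantile normalization or without replicates 3 and 4 at 96 weeks. Terf2, its relative, was at -0.07. Tert was at -0.04, with an interval of -0.15 to 0.06, and 5 of the 9 arrays held 1 identical value, 5.32.

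Of the genes of the p53 response, Gadd45a, a stress-induced gene, had levels of 8.84, 9.06, 8.81 and 8.75 at 14 weeks and 9.09, 8.93, 9.26, 8.93 and 8.89 at 96 weeks. Replicate 3 at 96 weeks was the highest, and the groups overlapped. For Gadd45a the log2 fold change was 0.15 (SE 0.091, limma adjusted p = 0.275), and 0.09 without that kidney, after a repeated quantile normalization or after cyclic loess. Mdm2, the ubiquitin ligase that limits p53, was at -0.08.

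Values identical to 5 decimals recurred between arrays in these data. At least 2 arrays shared a value for 25 members (61%, against 57.3% of all genes), and at least 5 arrays did for Atr, Mre11a, Lig3, Neil2 and Tert (12.2%, against 6.3%). The standard error of such genes rests partly on tied values. The old kidneys had the larger standard deviation for 27 members (65.9%, against 58.9% of all genes).

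Other genes of the same pathways were read from lists of 159 genes, of which 143 were measured. Of these, 6 rose (4.2%, background 4.31%) and none fell (background 2.4%) at an adjusted p under 0.05 from limma. At an unadjusted p under 0.05, 23 were higher (16.1%, background 13.3%) and 8 lower (5.59%, background 15.3%). The threshold of the methods was passed by 0 of them.

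Nudt1, which removes oxidised nucleotides from the pool before they are built into DNA, ran from 7.27 to 7.55 at 14 weeks and from 7.67 to 7.98 at 96 weeks. It rose by 0.40 (SE 0.081, limma adjusted p = 0.0198). In nucleotide excision, Cetn2, a part of the Xpc damage sensor, rose by 0.39 (adjusted p = 0.0269) and Gtf2h5, a small subunit of TFIIH, by 0.33 (adjusted p = 0.0314). Cetn2 ran from 7.43 to 7.77 in the young kidneys and 7.79 to 8.14 in the old, and Gtf2h5 from 9.52 to 9.85 and 9.95 to 10.13. Among 17 further telomere genes, Nop10 (0.34, adjusted p = 0.0215) and Nhp2 (0.32, adjusted p = 0.0431) rose. Nop10 ran from 10.94 to 11.18 in the young kidneys and from 11.30 to 11.53 in the old, and Nhp2 from 6.71 to 6.93 and from 6.98 to 7.31. Both encode proteins of H/ACA particles, which occur in telomerase and in the machinery that modifies ribosomal RNA. Plk2, a stress-responsive kinase, rose by 0.51 (SE 0.13, limma adjusted p = 0.0482), with levels of 6.87 to 7.51 in the young and 7.49 to 7.91 in the old kidneys, which overlapped. The other 5 of these 6 genes had groups without overlap. Of all 143 measured pathway genes, 13 had such groups (9.09%, background 13.3%).

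The pathway calls depended on scaling and on single arrays. After a repeated quantile normalization Gtf2h5 (limma adjusted p = 0.075), Nop10 (0.0527), Nhp2 (0.0564) and Plk2 (0.0648) did not pass, while Nudt1 and Cetn2 did. With 1 array left out, 1, 2, 3 and 0 of the genes passed without replicates 1 to 4 at 14 weeks, and 2, 2, 5, 3 and 5 without replicates 1 to 5 at 96 weeks. Calls over all genes fell as well. The share called higher was 4.31% with all arrays and 1.88% to 3.77% with 1 array left out. Of the genes on the lower side, Xrcc3, a gene of homologous recombination, had a log2 fold change of -0.29 (limma adjusted p = 0.0633), and Terf2ip, the shelterin protein Rap1, of -0.33 (limma adjusted p = 0.0611). Rev3l, the catalytic subunit of a translesion polymerase, was at -0.13, and Poli, another translesion polymerase, at -0.13. Also lower at an unadjusted p under 0.05 from limma were Mbd4 (-0.24), Cul4b (-0.20), Recql4 (-0.19) and Rrm2b (-0.19). Plk3 had the largest fall of the pathway genes, -0.41 (limma adjusted p = 0.223). None of these passed.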

How the data were processed

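RNA of whole kidneys was labelled and hybridised to Affymetrix Mouse Gene 1.0 ST arrays, 1 per mouse. Affymetrix Power Tools 1.12.0 was used by the authors for RMA with quantile normalization, which gave the deposited log2 level of each probe set. The methods name 5 mice per age, and 4 and 5 arrays carry the labels 14 and 96 weeks. Of 35557 probe sets, 21789 carried 1 gene symbol, 1621 several and 12147 none in the platform annotation. The brightest probe set of each symbol gave 19938 genes. Nbn was the 1 member with several probe sets. Ages were compared in R 4.3.3 by the lmFit and eBayes functions of limma 3.58.1, with Benjamini-Hochberg adjustment over all genes. The fit was also run on simulated arrays with independent noise. These had no tied values and no shift shared by an array, so that run does not bear on either. Signal over background was not used. Precision is limited by how many arrays there are. The members and lists were chosen with earlier results of these data known.

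Named with values per array were members that passed either threshold, members whose groups did not overlap and the member with the smallest p in each pathway. Pathway genes that passed were named with the range of their levels at each age. Brca1, Ercc4, Lig1, Blm, Fancd2, Apex1 and the other genes named were chosen after their values were seen. Promoters and neighbouring genes came from RefSeq tables of GRCm38.p6. The genome build of the platform annotation is not given in the sources used here. Alternatives covered the methods' t-test, array weights, a filter on genes under the 30th percentile of mean level, scaling (repeated quantile normalization, cyclic loess), averaging of probe sets, a replicate block, leaving out each array, and leaving out replicates 3 and 4 at 96 weeks.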

Additional observations from a re-analysis of the deposited data

Results flagged for a closer look

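In 14 of 94 sets of arrays examined (47 genes at 2 ages), the highest or lowest array lay far from the rest of its age group by Dixon's criterion, 7 at each age, and chance alone gives about 1 in 20. In several of these sets the other arrays shared 1 value or nearly so, so that a small gap was enough.

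Among excision repair genes, Ercc1 in replicate 4 at 14 weeks (6.828) lay below the other young kidneys (7.038 to 7.079). Ddb1 was lower in the same kidney (9.479, others 9.555 to 9.559) and higher in replicate 2 at 96 weeks (9.955, others 9.705 to 9.722). Neil2 in replicate 2 at 14 weeks was 6.046, and the others were all at 5.785. Ddb2 in replicate 1 at 14 weeks was 7.785, and the others were at 7.760.

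Among break repair and ligation genes, Atr in replicate 1 at 96 weeks was 8.350 (others 8.313), Brca2 in replicate 2 at 96 weeks 6.245 (others 6.150 to 6.152) and Lig3 in replicate 2 at 96 weeks 7.678 (others 7.561). Prkdc in replicate 1 at 14 weeks was 7.795, only just below the others (7.799 to 7.800). Replicate 4 at 96 weeks had the highest Fancd2 (4.780, others 4.325 to 4.448) and the lowest Wrn (8.189, others 8.309 to 8.355).

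Among telomere genes, Terf2 in replicate 3 at 14 weeks was 8.247 (others 8.135 to 8.137). Tert was 5.401 in replicate 4 at 14 weeks (others 5.308 to 5.318) and 5.197 in replicate 5 at 96 weeks (others 5.318 to 5.321).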

How the results depend on the processing

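Of the 41 members, 1 was higher on the deposited values. The count was 0 by the methods' t-test, with the replicate block and without replicates 3 and 4 at 96 weeks, 2 with array weights (Ercc1 and Polb) and 3 with the filter on dim genes (Ercc1, Polb and Ddb1). It ranged from 0 to 2 with each array left out. Over all genes, the share higher was 4.31% on the deposited values, 1.37% by the t-test and 1.4% with the block. That share was 3.71% without replicates 3 and 4 at 96 weeks and 5.02% with array weights. The filter kept 38 members and 124 pathway genes, and 7.7% of all 13956 genes it kept were higher. No member reached 1.5-fold, whichever test was used, and none was lower under any of the 17 alternatives, and the members' median stayed between 0.00 and 0.04. Ercc1 passed in 7 of 17, with a log2 fold change of 0.22 to 0.30 and an adjusted p of 0.0238 to 0.114. For the pathway genes, 6 were higher on the deposited values, 0 by the t-test and 1 with the block. The count was 3 without replicates 3 and 4 at 96 weeks and 0 to 5 with each array left out. It was 4 after repeated quantile normalization, 5 after cyclic loess, 6 with averaged probe sets, 8 with the filter and 9 with array weights. The genes were not always the same. Repeated quantile normalization kept Nudt1 and Cetn2 of the 6 and added Zmat3 and Gadd45b, and cyclic loess gave these 4 and Nop10. Of the pathway genes 2 were lower with the filter (Xrcc3 and Terf2ip) and 1 after a repeated quantile normalization (Rrm2b). Over all genes 1339 passed, 367 by the t-test and 368 with the block. The log2 fold change of Brca1 ranged from -0.03 (replicate 4 at 96 weeks left out) to 0.25 with each array left out, and was -0.085 with both replicates 3 and 4 left out. The cause was not tested. The labels do not say whether replicate numbers pair the mice. Same-numbered arrays had correlations of 0.076, 0.021, -0.037 and 0.012 in their deviations from the group means, which cannot decide this.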
